A study of Homo sapiens with 9 samples.

Results

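The 10 heat shock protein genes HSPA1A, HSPA1B, HSPA8, HSP90AA1, HSP90AB1, DNAJB1, HSPH1, HSPB1, HSPD1 and HSPE1 were chosen by name out of 61544 genes listed. The rule used no measured values, but earlier results of these data were known when it was made. All 10 were among the 14727 genes that passed the expression filter. Their transcripts were followed in HMC3, an SV40-immortalized line of human microglial origin that is labelled as wild type, over 9 RNA-seq libraries, 3 each of VEH, SLO ½ and SLO. SLO cells received SBI-0206965 (10 µM), which inhibits ULK1 and with it the start of autophagy, O-151 (1 µM), which inhibits the DNA glycosylase OGG1, and Lopinavir (1 µM), which blocks the maturation of Lamin A, for 6 days. SLO ½ cells received the same compounds at 5, 0.5 and 0.5 µM, and VEH cells only the solvent, DMSO, for the same time. All groups come from 1 immortalized line, the compounds were always given together, and the labels do not say whether the 3 libraries of a group came from separate cultures, so p-values measure the spread between these libraries, which may be technical.

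Heat shock proteins are molecular chaperones that bind unfolded or partly folded proteins and release them in cycles driven by ATP or by partner proteins. In the cytosol, J-domain proteins pass clients to HSP70, nucleotide exchange factors reset HSP70, and HSP90 completes the folding of many kinases and receptors, while small heat shock proteins hold unfolding clients without ATP. In mitochondria the HSP60 and HSP10 chaperonin folds imported proteins. Some of these genes are constitutive and others are strongly induced by heat or proteotoxic stress through heat shock factor 1 (HSF1), which binds heat shock elements in their promoters.

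Reads assigned to genes numbered 14834295 to 19674841 per library, and values below are counts scaled to library size by the TMM method of edgeR (CPM) unless TPM, the deposited values that also account for gene length, are named. Changes are log2 fold changes of the edgeR quasi-likelihood model, in which the 9 libraries share 1 estimate of the spread, and Benjamini-Hochberg adjustment ran over all tested genes. A gene is said to have risen or fallen where adjusted p was below 0.05. Markers went against the labelled cell type in part, with 11 of 12 microglia markers under 1 TPM in every library, P2RY12, TYROBP and C1QA at 0 counts in all 9, and only TREM2 above 1 TPM throughout (1.13 to 5.05). The microglia list summed to 1.46 to 2.52 TPM for VEH, 4.11 to 6.31 for SLO ½ and 4.80 to 5.13 for SLO, while the fibroblast and mural list summed to 1418 to 1650, 1695 to 1727 and 2002 to 2091 TPM, led by COL1A1, with 5 of 9 markers above 1 TPM throughout. The astrocyte and neuron list summed to 3.21 to 3.67, 4.15 to 4.74 and 5.12 to 5.68 TPM. All 3 sums were higher in SLO than in VEH without overlap, the microglia sum overlapped between the doses, and their part in the results below was not tested. Each sum rests mostly on 1 or 2 genes: TREM2, with 4 to 20 reads per library, COL1A1, and SNAP25 with SYT1. Of 6 fibroblast and mural markers tested in SLO against VEH, 4 rose and 1 fell, PDGFRB, at 60.2 TPM on average in VEH and 49.2 in SLO. In bulk RNA, fewer cells of a type and less RNA per cell cannot be told apart.

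In SLO the HSP90 genes, the constitutive HSP70, its exchange factor and the mitochondrial chaperonin were lower, and the stress-inducible HSP70 genes, a J-domain partner and a small heat shock protein were not. The stress-responsive HSP90AA1 is among the lower genes, and the values of HSPA1A and HSPA1B are uncertain for the repeated sequence described below. In SLO against VEH, 6 members fell (HSPD1, HSP90AA1, HSP90AB1, HSPA8, HSPE1 and HSPH1) and 3 rose (HSPB1, HSPA1B and DNAJB1), while HSPA1A did not pass the test. Over all tested genes 64.9% were called in this comparison, 32.9% higher and 32.1% lower, so the 3 of 10 that rose are near the background share and the 6 of 10 that fell are above it. The 3 libraries of SLO and of VEH did not overlap for 8 of 10 members and for 66.7% of tested genes. The median log2 fold change of the members was -0.44, with a range of -0.91 to 0.33, beside 0.014 over all tested genes.

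In SLO ½ against VEH, 3 members fell (HSP90AA1, HSPD1 and HSPA8), 2 rose (HSPB1 and DNAJB1) and 5 did not pass the test, where 52.0% of all tested genes were called, 26.7% higher and 25.3% lower. The median over the members was -0.021, and 5 of 10 did not overlap with VEH, as against 58.3% of tested genes. The comparison of SLO with SLO ½ called the same 6 genes lower as SLO against VEH and none higher, with a member median of -0.37, and 41.1% of all tested genes called, 20.8% higher and 20.3% lower. In that comparison 6 of 10 members, and 51% of tested genes, had no overlap. The comparisons share libraries, so their values stand side by side and are not independent.

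**Figure D1:**
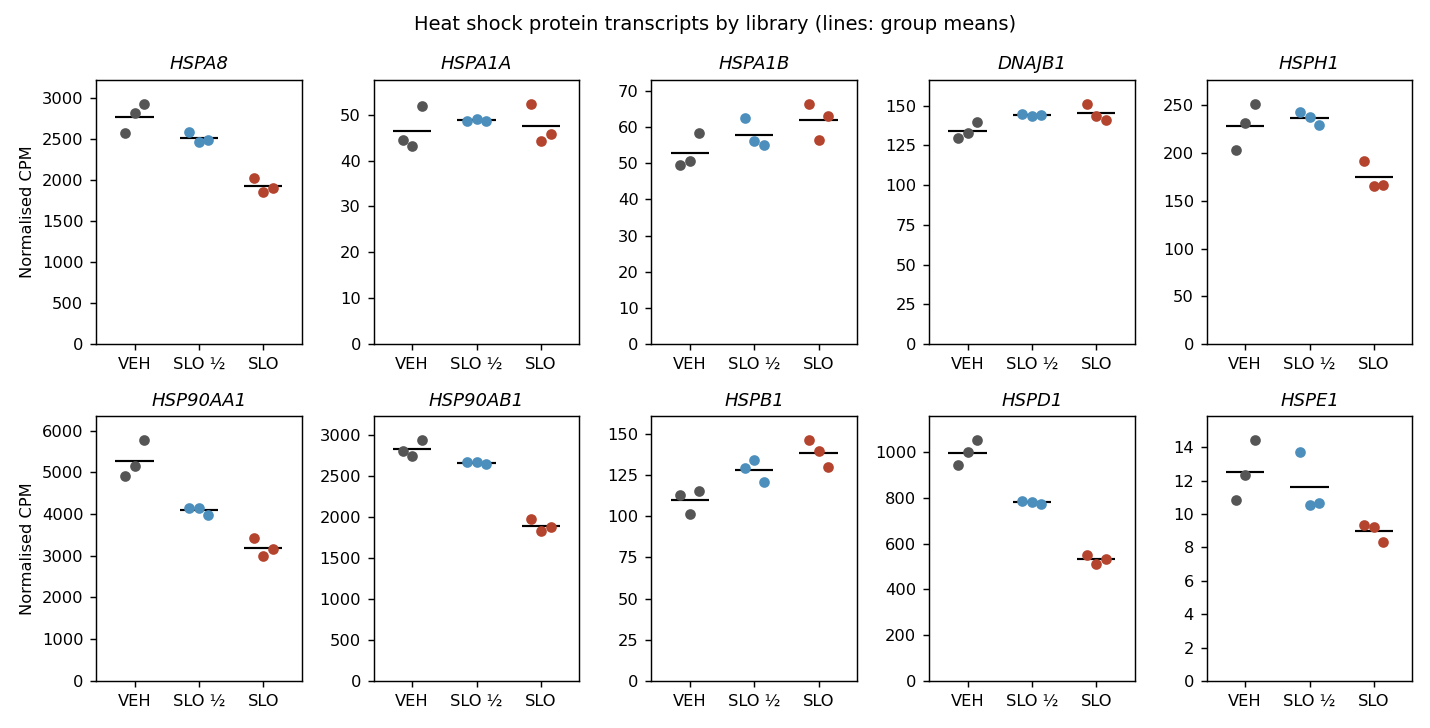
Normalised CPM of the 10 genes in each library (points) with group means (lines), on axes that start at 0. HSPD1 lay at 943 to 1050 for VEH, 774 to 785 for SLO ½ and 509 to 551 for SLO with no overlap between any of the groups, while HSPA1A lay at 43.2 to 52.4 over all 9 libraries.

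The cytosolic HSP90 genes fell in SLO. HSP90AA1, the stress-responsive isoform HSP90 alpha (chr14:102080742-102139699, GRCh38), was at 4909, 5159 and 5763 CPM in VEH, 4144, 4143 and 3970 in SLO ½ and 3427, 2988 and 3169 in SLO. The 3 groups did not overlap and stood in the order of dose. Its log2 fold change was -0.37 (SE 0.0518, edgeR adjusted p = 7.40e-07) in SLO ½ and -0.72 (SE 0.0520, adjusted p = 6.05e-13) in SLO against VEH, and -0.35 (adjusted p = 2.36e-06) between the doses.

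HSP90AB1, the constitutive isoform HSP90 beta (chr6:44246166-44253888), was at 2805, 2746 and 2929 CPM in VEH, 2666, 2668 and 2638 in SLO ½ and 1969, 1826 and 1872 in SLO. All groups were again apart, but VEH and SLO ½ lay close together and SLO stood well below both. The log2 fold change in SLO ½ was -0.089 (SE 0.0411, edgeR adjusted p = 0.0705) and did not pass the test, although 4 of 16 alternatives called it, with adjusted p between 0.0228 and 0.412. In SLO it was -0.58 (SE 0.0413, adjusted p = 4.78e-13) against VEH and -0.49 (adjusted p = 1.12e-10) against SLO ½.

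In these libraries the ratio between the isoforms lay apart in the 3 groups, only just so between VEH and SLO. The log2 ratio of HSP90AA1 to HSP90AB1 CPM was 0.807, 0.910 and 0.976 in the VEH libraries, 0.636, 0.635 and 0.590 in SLO ½ and 0.800, 0.711 and 0.759 in SLO. It was highest in VEH and lowest in SLO ½, with no overlap between any 2 groups. Each difference had p = 0.1 in an exact two-sided permutation test, the smallest that 3 libraries against 3 can give, and p = 0.138 after adjustment over 18 comparisons, 6 ratios in 3 comparisons each.

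HSPA8, the constitutive HSP70 (HSC70) that also serves clathrin uncoating and chaperone-mediated autophagy (chr11:123057489-123063230), fell from 2571, 2819 and 2931 CPM in VEH to 2025, 1851 and 1899 in SLO, with 2592, 2466 and 2494 in SLO ½. SLO was below every other library, whereas SLO ½ and VEH overlapped through SLO ½ replicate 1 and VEH replicate 1. The change was -0.53 (SE 0.0466, edgeR adjusted p = 5.19e-11) in SLO and -0.14 (SE 0.0464, adjusted p = 0.0125) in SLO ½. The call in SLO ½ was lost in 4 of 16 alternatives, among them those without VEH replicate 3 or without SLO ½ replicate 2, with adjusted p between 0.000411 and 0.104.

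HSPA1A and HSPA1B encode the stress-inducible HSP70 and are neighbours on chromosome 6 (chr6:31815543-31817946 and chr6:31827738-31830254). HSPA1A was at 44.6, 43.2 and 51.8 CPM in VEH, 48.5, 49.1 and 48.6 in SLO ½ and 52.4, 44.2 and 45.7 in SLO. The groups overlapped, and its log2 fold change in SLO was 0.022 with a 95% interval of -0.11 to 0.15 (edgeR adjusted p = 0.778). In SLO ½ it was 0.061 (interval -0.066 to 0.19, adjusted p = 0.449).

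HSPA1B was at 49.6, 50.6 and 58.4 CPM in VEH, 62.5, 56.1 and 55.1 in SLO ½ and 66.4, 56.4 and 63.0 in SLO. The lowest SLO library lay below the highest VEH library, so the groups overlapped. Its rise of 0.22 in SLO (SE 0.0647, edgeR adjusted p = 0.00356) was lost in 1 of 16 alternatives, limma on log2(TPM + 1) of all genes (range of adjusted p 0.000212 to 0.104), and the value in SLO ½ was 0.13 (adjusted p = 0.101), called in 2 of 16 alternatives, 1 of them without VEH replicate 3 (adjusted p 0.0111 to 0.563). The log2 ratio of HSPA1A to HSPA1B was -0.154, -0.227 and -0.173 in VEH and -0.343, -0.351 and -0.461 in SLO, without overlap (exact permutation p = 0.1, adjusted 0.138). In SLO ½ the ratio was -0.364, -0.192 and -0.182 and overlapped both VEH and SLO.

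Reads cannot be shared out fully between these neighbours. Their transcripts were 94.95% identical over the aligned bases, with an identical run of 1715 bases, and 75.1% of the 50-base windows of HSPA1A and 71.6% of those of HSPA1B occurred elsewhere in the primary assembly. Reads that match several places were not counted, so both genes were measured from their distinct parts, and their values remain uncertain. HSPA1B also shares 920 of 2517 exonic bases with the long noncoding gene ENSG00000285565 on the same strand, which had 0 counts in every library. Reads in such shared exons are counted for neither gene, so the 0 counts do not show how many reads HSPA1B lost there. HSPA6, a strictly inducible HSP70 relative, was not tested, with mean levels of 0.237 (VEH), 0.289 (SLO ½) and 0.122 CPM (SLO).

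Among partners of HSP70, DNAJB1 (chr19:14514769-14560391), the J-domain protein HSP40 that stimulates HSP70 ATP hydrolysis, was at 130, 133 and 140 CPM in VEH, 145, 143 and 144 in SLO ½ and 151, 144 and 141 in SLO. Every treated library lay above every VEH library, by a small margin. The log2 fold changes were 0.10 in SLO ½ (SE 0.0418, edgeR adjusted p = 0.0422) and 0.11 in SLO (SE 0.0419, adjusted p = 0.0188). The SLO ½ call was lost in 11 of 16 alternatives (adjusted p 0.00281 to 0.402), DESeq2 among them, and when any 1 of the 6 libraries compared was left out, except VEH replicate 3. The SLO call was lost in 5 of 16 (adjusted p 0.000238 to 0.127), including those without VEH replicate 1, VEH replicate 2 or SLO replicate 1.

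HSPH1 (HSP110, chr13:31134973-31162388), a nucleotide exchange factor that resets HSP70, changed between the doses. It was at 203, 231 and 252 CPM in VEH, 243, 237 and 229 in SLO ½ and 191, 166 and 166 in SLO. VEH and SLO ½ overlapped, and all SLO libraries were below both. The change was 0.048 in SLO ½ (SE 0.0564, edgeR adjusted p = 0.502, interval -0.063 to 0.16), -0.39 in SLO against VEH (adjusted p = 7.68e-07) and -0.44 in SLO against SLO ½ (adjusted p = 3.67e-07).

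Set against HSPA8, the other HSP70 genes and partners gave the following ratios. The log2 ratio of DNAJB1 to HSPA8 was -4.37 ± 0.0521 (SD, n = 3) for VEH, -4.13 ± 0.0322 for SLO ½ and -3.73 ± 0.0336 for SLO, and that of HSPA1B to HSPA8 was -5.72 ± 0.0778, -5.44 ± 0.0634 and -4.96 ± 0.0667. Both ratios were higher from group to group without overlap, by 0.64 and 0.76 between VEH and SLO, with exact permutation p = 0.1 and 0.138 after adjustment. Most of this is the fall of HSPA8, which both ratios share, by -0.53 in SLO, beside 0.11 for DNAJB1 and 0.22 for HSPA1B. The ratio of HSPH1 to HSPA8 was -3.60 ± 0.0587 for VEH, -3.41 ± 0.0324 for SLO ½ and -3.47 ± 0.0569 for SLO, and here the doses overlapped. In all, 13 of the 18 ratio comparisons had no overlap, but the share over other gene pairs was not computed. For single genes, 51% to 66.7% of all tested genes had no overlap, depending on the comparison. The ratios share genes and libraries and are not independent, so the count is only a description.

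**Figure D2:**
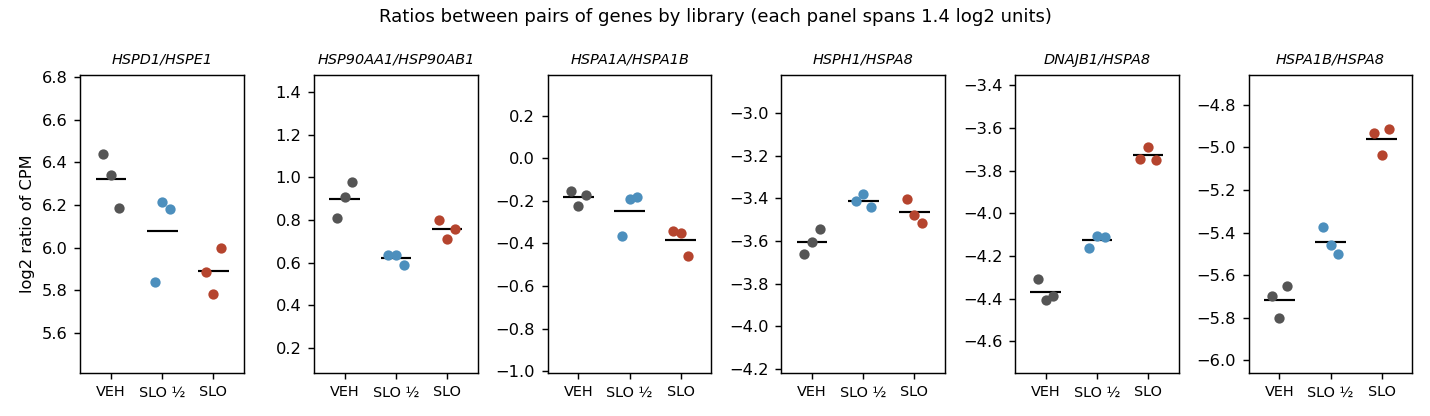
Log2 ratio of normalised CPM for 6 pairs of genes in each library (points) with group means (lines). DNAJB1/HSPA8 and HSPA1B/HSPA8 lie higher in SLO ½ than in VEH and higher again in SLO, while HSP90AA1/HSP90AB1 is lowest in SLO ½ (0.590 to 0.636).

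HSPB1 (HSP27, chr7:76302673-76304295), a small heat shock protein that holds unfolding clients and caps actin filaments, rose at both doses. Its values were 113, 101 and 115 CPM in VEH, 129, 134 and 120 in SLO ½ and 146, 140 and 130 in SLO. Treated libraries were all above VEH, and the doses overlapped. The log2 fold change was 0.22 in SLO ½ (SE 0.0513, edgeR adjusted p = 0.000696) and 0.33 in SLO (SE 0.0512, adjusted p = 1.70e-06), a 1.26-fold level, and the SLO ½ call was lost in 1 of 16 alternatives, limma on log2(TPM + 1) of all genes (adjusted p 9.18e-05 to 0.0851). Between the doses the difference was 0.11 (adjusted p = 0.0700) and was called in 4 of 16 alternatives (adjusted p 0.0255 to 0.342), among them those without SLO ½ replicate 2 or without SLO replicate 3.

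The mitochondrial chaperonin HSPD1 (HSP60, chr2:197486584-197516737), whose ring folds imported matrix proteins, had the lowest fold change of the 10 in SLO, whereas in SLO ½ that of HSP90AA1 was lower. It was at 943, 999.5 and 1050 CPM in VEH, 785, 780 and 774 in SLO ½ and 551, 509 and 531 in SLO, so that the 3 groups stood far apart in the order of dose. Its log2 fold change was -0.36 in SLO ½ (SE 0.0424, edgeR adjusted p = 4.38e-08) and -0.91 in SLO (SE 0.0429, adjusted p = 4.34e-17), which left 0.532 of the VEH level, and -0.56 (adjusted p = 2.08e-11) between the doses. All 16 alternatives kept the 3 calls.

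HSPE1 (HSP10, chr2:197500140-197503449), the lid of the same chaperonin, was counted at a very low level, with 125 to 276 reads per library. It was at 10.9, 12.3 and 14.4 CPM in VEH, 13.7, 10.5 and 10.7 in SLO ½ and 9.32, 9.24 and 8.31 in SLO. SLO lay below every other library, and the other groups overlapped. The change was -0.49 in SLO (SE 0.117, edgeR adjusted p = 0.000549) and -0.12 in SLO ½ (SE 0.110, adjusted p = 0.400), and -0.38 between the doses (adjusted p = 0.0110), the last lost in 4 of 16 alternatives (adjusted p 0.00309 to 0.170), among them those without SLO ½ replicate 1 or SLO replicate 3. In TPM, HSPE1 was at 32.4 ± 4.78 (SD, n = 3) in VEH beside 615 ± 36.5 for HSPD1. The log2 ratio of HSPD1 to HSPE1 CPM was 6.32 ± 0.128 for VEH, 6.08 ± 0.209 for SLO ½ and 5.89 ± 0.108 for SLO. VEH and SLO did not overlap (exact permutation p = 0.1, adjusted 0.138), and SLO ½ overlapped both.

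Of the 50-base windows of the HSPE1 transcript, 37.2% occurred elsewhere in the assembly, beside 41.3% for HSPD1, 24.6% for HSP90AA1, 23.2% for HSPA8, 22.5% for HSP90AB1, 16.6% for HSPB1, 4.3% for DNAJB1 and 0.2% for HSPH1. HSPE1 has 26 annotated copies in the files, of 74 for the members together, and shares 192 of 1823 exonic bases with the readthrough gene HSPE1-MOB4, which had 0 counts in all 9 libraries. Reads in exons that genes share on the same strand are counted for neither and made up 3.03% to 3.26% of each library. Reads matching several places, also uncounted, were 8.35% to 8.52% for VEH, 7.83% to 7.95% for SLO ½ and 7.16% to 7.31% for SLO, a share that was lower with dose and whose part in these changes was not tested.

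Of the 74 copies, 34 were at 0 in every library and 3 had enough reads for a test. HSP90AA2P and HSP90AB3P, copies of the HSP90 genes, fell by 0.99 (edgeR adjusted p = 0.000166) and 1.07 in SLO on the log2 scale, while HSPD1P11, a copy of HSPD1, rose by 1.38 (adjusted p = 4.91e-07), from 27 to 34 counts in the VEH libraries to 70 to 92 in SLO. The counts of the copies came to at most 1.61% of those of their member.

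**Figure D3:**
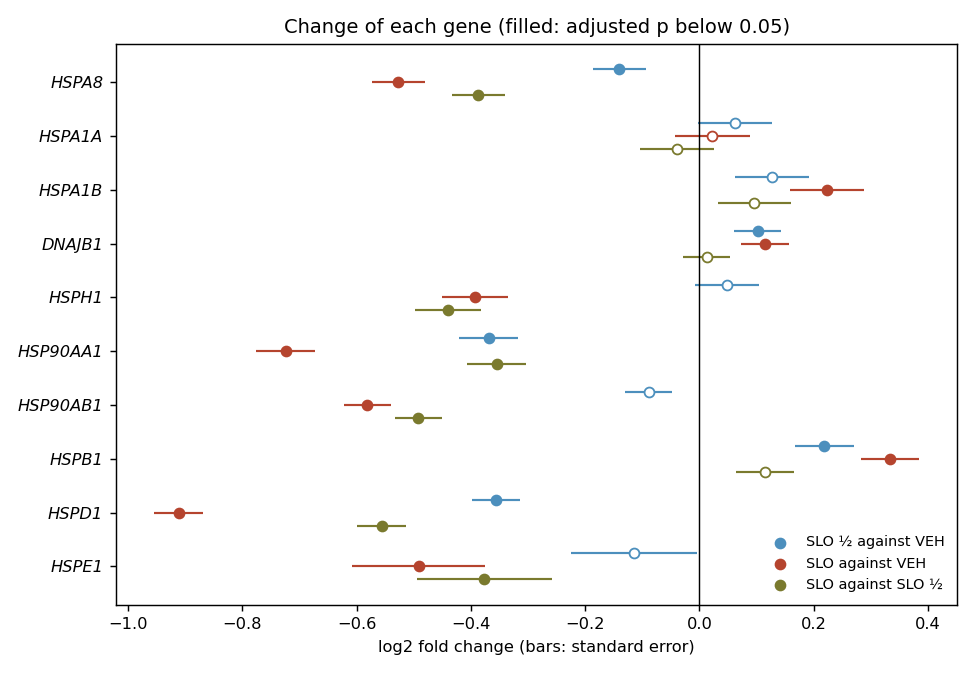
Log2 fold change (points) with its standard error (bars) for the 10 genes in 3 comparisons, filled where the edgeR adjusted p was below 0.05. In SLO against VEH 6 genes lie left of 0, down to -0.91 for HSPD1, and 3 filled points lie right of it, up to 0.33 for HSPB1.

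Levels between genes are set side by side in TPM, which reads that match several places, being uncounted, may lower unequally. The 50-base windows found elsewhere were 75.1% for HSPA1A, 71.6% for HSPA1B, 41.3% for HSPD1 and 37.2% for HSPE1, beside 16.6% for HSPB1 and 0.2% for HSPH1. The places of HSPA1A, HSPA1B, HSPD1 and HSPE1 in the order below are therefore uncertain. In VEH the HSP90 genes overlapped at the top (4498 to 5340 for HSP90AA1 and 4350 to 4642 for HSP90AB1), followed without overlap by HSPA8 (2476 to 2855), HSPD1 (577 to 650), HSPB1 (295 to 335) and HSPH1 (113 to 142). HSPA1B (92.0 to 110) and HSPA1A (84.8 to 102) overlapped, and DNAJB1 (74.0 to 80.7) and HSPE1 (27.8 to 37.3) came last. In SLO ½ HSP90AB1 (4018 to 4118) lay above HSP90AA1 (3597 to 3743), and in SLO they overlapped again. In SLO, HSPB1 (374 to 421) stood above HSPD1 (312 to 338), the reverse of their order in VEH. The 10 genes together held 1.27% to 1.43% of all TPM for VEH, 1.12% to 1.16% for SLO ½ and 0.850% to 0.941% for SLO, and HSPA8 with the HSP90 genes made up 87.0% to 89.9% of that sum.

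Within VEH and within SLO, 1 library was highest for every member. VEH replicate 3, the deepest library, was the highest VEH library for 10 of 10 members, where this held for 31.7% of all tested genes, and SLO replicate 1 was the highest SLO library for 10 of 10, beside 37% of tested genes. In SLO ½ the highest was replicate 1 for 7 members and replicate 2 for 3. The coefficient of variation between replicates had a median of 7.51% over the members for VEH, 2.54% for SLO ½ and 6.11% for SLO, beside 6.63%, 5.24% and 5.87% over all tested genes. Leaving out any 1 library, these 2 included, left 6 members lower in SLO against VEH.

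Sequence upstream of RefSeq starts of the genes was examined because the members share a known regulator. All 10 genes matched RefSeq promoters (GRCh38.p14), in 16 entries of 300 bases that run from 250 before to 50 after a gene start. A heat shock element of 2 units, GAANNTTC or TTCNNGAA on either strand, was present in 9 of the 16 entries, for 8 members, and in 13.49% of all 35114 promoters. A 3-unit run, GAANNTTCNNGAA or TTCNNGAANNTTC, in which 2-unit elements overlap, was present in 4 of the 16 entries, for 4 members, and in 0.49% of all promoters. These members were HSPD1, HSP90AA1, HSP90AB1 and HSPA8, all 4 lower in SLO. Their windows with the runs lie within the gene spans given above, downstream of the outermost start. The other entries of HSPD1, HSP90AA1 and HSP90AB1 held no heat shock element. The 4 with 2-unit elements only were HSPA1A, HSPA1B, DNAJB1 and HSPB1, of which 3 were higher and none lower, and HSPH1 and HSPE1, both lower, had neither in these windows. Only exact letters were counted, and the number of entries differed between genes. After GAATATTC in HSPA1A and HSPA1B the next letters are ccgac, and after GAAGGTTC in HSPB1 and DNAJB1 they are cagat and tggag. An exact 3-unit run would need GAA in place of gac, gat and gag, so these near matches were not counted. The 250 bases before the start are shown 5′ to 3′ for the 4 genes with 3-unit runs and for 3 with 2-unit elements, with heat shock elements in capitals and the genome strand in brackets.
HSPD1, chr2:197499841-197500090 (-): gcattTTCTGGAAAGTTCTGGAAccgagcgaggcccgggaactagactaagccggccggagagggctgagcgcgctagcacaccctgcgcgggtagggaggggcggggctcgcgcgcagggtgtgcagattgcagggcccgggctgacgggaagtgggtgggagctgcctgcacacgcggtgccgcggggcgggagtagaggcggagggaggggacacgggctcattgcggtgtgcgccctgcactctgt
HSP90AA1, chr14:102087045-102087294 (-): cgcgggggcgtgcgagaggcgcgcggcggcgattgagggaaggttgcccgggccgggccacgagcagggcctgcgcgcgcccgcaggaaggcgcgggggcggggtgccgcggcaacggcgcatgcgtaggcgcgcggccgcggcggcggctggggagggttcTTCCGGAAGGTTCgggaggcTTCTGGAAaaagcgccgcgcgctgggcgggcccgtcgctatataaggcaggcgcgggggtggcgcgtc
HSP90AB1, chr6:44247693-44247942 (+): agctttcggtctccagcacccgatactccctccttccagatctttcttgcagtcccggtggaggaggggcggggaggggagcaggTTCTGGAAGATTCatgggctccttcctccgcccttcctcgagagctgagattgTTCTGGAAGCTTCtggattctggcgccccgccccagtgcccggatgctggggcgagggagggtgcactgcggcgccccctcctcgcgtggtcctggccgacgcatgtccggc
HSPA8, chr11:123062137-123062386 (-): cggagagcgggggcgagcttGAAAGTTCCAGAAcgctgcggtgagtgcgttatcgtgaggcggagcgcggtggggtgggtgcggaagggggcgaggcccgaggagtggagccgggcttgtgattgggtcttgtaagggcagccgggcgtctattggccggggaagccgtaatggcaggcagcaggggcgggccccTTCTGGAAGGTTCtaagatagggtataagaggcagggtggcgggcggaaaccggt
HSPA1A, chr6:31815293-31815542 (+): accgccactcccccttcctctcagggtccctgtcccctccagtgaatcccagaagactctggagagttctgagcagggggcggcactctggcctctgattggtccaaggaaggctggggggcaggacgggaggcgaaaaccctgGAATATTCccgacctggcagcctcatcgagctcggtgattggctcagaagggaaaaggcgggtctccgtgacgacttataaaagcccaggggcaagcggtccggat
HSPA1B, chr6:31827488-31827737 (+): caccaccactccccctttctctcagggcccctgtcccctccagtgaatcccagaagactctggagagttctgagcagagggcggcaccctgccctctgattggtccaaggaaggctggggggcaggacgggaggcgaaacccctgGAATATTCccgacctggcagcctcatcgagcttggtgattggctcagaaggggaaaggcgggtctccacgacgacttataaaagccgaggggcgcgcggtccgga
HSPB1, chr7:76302423-76302672 (+): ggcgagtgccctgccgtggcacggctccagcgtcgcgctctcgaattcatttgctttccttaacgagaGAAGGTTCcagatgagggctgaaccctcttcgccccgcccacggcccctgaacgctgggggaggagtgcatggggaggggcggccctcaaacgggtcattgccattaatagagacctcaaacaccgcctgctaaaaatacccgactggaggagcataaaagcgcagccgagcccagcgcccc
The run of HSPD1 is the longest, at 18 bases, and begins 245 bases before its start. It lies 294 bases from the RefSeq start of HSPE1 (197500379) and falls just outside the HSPE1 window. HSPE1 is read in the other direction, and the RefSeq starts of the 2 genes are 539 bases apart. The HSPE1 span given above begins earlier, at 197500140, and so lies closer to this run, which ends at 197500085. The 300-base windows of HSPA1A and HSPA1B were 92.64% identical over 299 aligned bases and carry the same element, 106 and 105 bases before the start. A match of letters is a description and does not show binding, and the counts of higher and lower members by element are given with no test.

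HSF1, the factor that binds these elements, was at 39.8, 41.8 and 39.1 CPM on average in the groups by rising dose, with a log2 fold change of -0.024 in SLO (edgeR adjusted p = 0.740). Its relative HSF2 fell by 0.21 (adjusted p = 0.0256), and HSF4, at 1.88 to 3.10 CPM, HSBP1, which binds and restrains HSF1, and HSF2BP, at 0.854 to 1.57 CPM, rose by 0.75, 0.34 and 0.78. HSF1, HSF2 and HSF2BP were named after their values were seen.

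Beyond the members, 10 lists of related chaperone genes held 97 genes, of which 90 were tested. In SLO against VEH 25 rose and 55 fell, with a median of -0.20, beside 32.9% higher and 32.1% lower over all tested genes. In SLO ½ 23 rose and 33 fell, beside 26.7% and 25.3% over all tested genes, and between the doses 10 were higher and 46 lower, beside 20.8% and 20.3%. The 23 of 90 that rose in SLO ½ are near the background share. The same shares over all tested genes apply to each list below. Among those that rose in SLO, 5 of 15 J-domain genes and 3 of 10 exchange and degradation cochaperones are near the 32.9%.

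The cytosolic chaperonin CCT, which folds actin and tubulin, moved as a whole, with 8 of 8 subunits lower in each of the 3 comparisons. Their median was -0.19 in SLO ½ and -0.52 in SLO. CCT5 went from 715 ± 26.4 CPM (SD, n = 3) under VEH to 644 ± 11.5 under SLO ½ and 459 ± 8.69 under SLO, and CCT8 from 642 ± 17.6 to 550 ± 5.11 and 434 ± 15.9. Prefoldin, which delivers clients to CCT, had 5 of 6 subunits lower in SLO, among them VBP1 (-0.47) and PFDN6 (-0.55), while PFDN5 rose by 0.62 at 6.91 CPM in VEH.

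Cochaperones of HSP90 fell in 10 of 15 cases and rose in 2, with a median of -0.34. STIP1 (HOP), which links HSP70 to HSP90, changed by -0.54 (edgeR adjusted p = 3.09e-12), and PTGES3 (p23), which stabilises the closed HSP90, by -0.62 (adjusted p = 7.74e-14). The genes that rose were FKBP5 (0.31), an immunophilin induced by glucocorticoids, and CDC37L1 (0.55). The kinase cochaperone CDC37 gave 0.012 (adjusted p = 0.821).

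J-domain genes went both ways, with 5 of 15 higher and 8 lower in SLO, and a median of -0.11. DNAJC7 changed by -0.53 and DNAJB2, a neuronal J-domain protein that sorts clients for the proteasome, by 0.63. Of the nucleotide exchange and degradation cochaperones 3 of 10 rose and 5 fell. BAG6, which guards proteins with exposed membrane segments, fell from 315 ± 15.5 to 191 ± 6.05 CPM (-0.72), and BAG3, which routes clients of HSP70 to selective autophagy, rose from 67.5 ± 6.24 to 90.2 ± 1.41 CPM (0.41, edgeR adjusted p = 6.15e-08). STUB1 (CHIP), a ubiquitin ligase bound to HSP70 and HSP90, and SIL1 rose by 0.40 and 0.49.

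The HSP70 relatives split evenly, with 3 of 6 tested higher and 3 lower. HSPA2 went from 23.6 ± 0.704 CPM under VEH to 35.6 ± 0.879 under SLO ½ and 46.5 ± 1.31 under SLO (0.98, edgeR adjusted p = 1.32e-14), and HSPA4L, an HSP110 relative of HSPH1, from 44.9 ± 1.59 to 58.3 ± 1.95 and 82.7 ± 1.04 (0.88). HSPA12A rose by 0.75. HSPA4, HSPA14 and HSPA1L fell by 0.25, 0.43 and 0.66.

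Of the other small heat shock proteins only 2 of 7 had enough reads for a test. CRYAB (alpha B-crystallin), a small heat shock protein of muscle, lens and glia, was at 6.73, 5.19 and 6.69 CPM in VEH, 32.1, 33.9 and 30.9 in SLO ½ and 34.5, 33.0 and 40.6 in SLO. The treated libraries lay far above VEH and overlapped between doses. Its log2 fold change was 2.37 in SLO ½ (SE 0.0985, edgeR adjusted p = 9.12e-18) and 2.53 in SLO (SE 0.0977, adjusted p = 5.42e-19), and 0.15 between the doses (adjusted p = 0.0980). HSPB8, the small heat shock partner of BAG3, was called higher at both doses, though at only 0.131 ± 0.131 CPM in VEH and 1.09 ± 0.226 in SLO.

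Mitochondrial chaperones and proteases fell in 12 of 15 cases in SLO, with a median of -0.31. HSPA9 (mortalin), the matrix HSP70 that pulls in preproteins, went from 547 ± 24.1 CPM under VEH to 442 ± 4.25 under SLO ½ and 339 ± 5.43 under SLO (-0.69, edgeR adjusted p = 5.13e-15), and the matrix protease LONP1 from 96.5 ± 4.51 to 69.7 ± 2.66 and 62.1 ± 1.59 (-0.63). TRAP1, the mitochondrial HSP90, changed by -0.61. The 2 that rose, SPG7 (0.31) and AFG3L2 (0.11), form a protease of the inner membrane together. Reads on mitochondrially encoded genes went the other way, from 1.30% to 1.61% of gene reads in VEH to 2.51% to 3.12% in SLO.

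In the endoplasmic reticulum list 4 of 8 rose and 3 fell. HYOU1, an exchange factor for BiP, rose from 304 ± 7.95 to 394 ± 12.8 CPM (0.37) and the J-domain protein DNAJB9 from 16.7 ± 1.27 to 26.2 ± 2.34 (0.64). DNAJC3 and DNAJB11 rose by 0.40 and 0.26, while HSPA5 (BiP), HSP90B1 (GRP94) and HSPA13 fell by 0.18, 0.26 and 0.28.

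**Figure D4:**
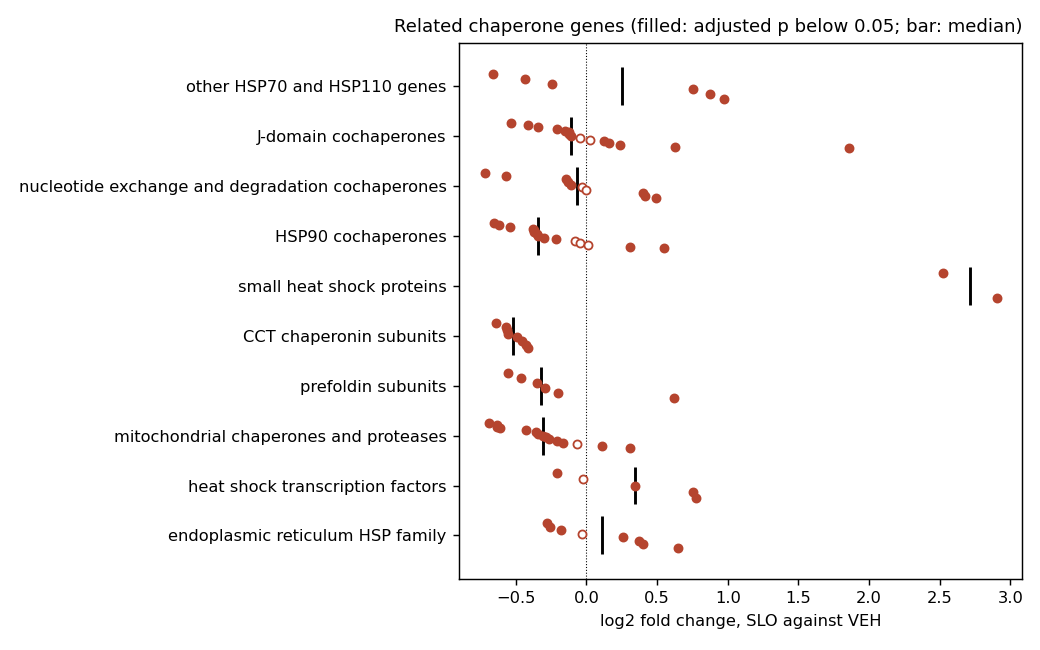
Log2 fold change in SLO against VEH of the 90 tested genes of 10 chaperone lists (points), filled where the edgeR adjusted p was below 0.05, with the median of each list (bar). All 8 CCT subunits lie left of 0 around a median of -0.52, whereas CRYAB and HSPB8 lie furthest right at 2.53 and 2.90.

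The genes most like HSPD1 over the 9 libraries, by the root-mean-square difference of centred log2 CPM among 6109 genes, were MRPL3, a protein of the mitochondrial ribosome, PAICS, an enzyme of purine synthesis, and RPL7, a protein of the cytosolic ribosome. The differences were 0.0410, 0.0438 and 0.0514. MRPL3 stood at 169, 128 and 86.2 CPM on average by rising dose. Among the members themselves, HSP90AB1 ranked 47 of 6109 in likeness to HSPA8, and HSPA8 ranked 28 in likeness to HSP90AB1. HSP90AA1 ranked 70 for HSPD1, its nearest member, and HSPA8 ranked 2 of 6110 for HSPE1, whose own chaperonin partner HSPD1 ranked 2127. The genes compared had an average log2 CPM of at least 5, a level that HSPE1, at 8.96 to 12.5 CPM by group, does not reach. With 125 to 276 reads per library, and a difference of 0.0972 to its nearest gene, the ranks for HSPE1 are uncertain. DNAJB1 was the nearest member to HSPA1A, at rank 37, and HSPA8 was at rank 4502. These ranks describe 9 libraries that share the dose groups, and no test was made of them.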

How the data were processed

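RNA of 9 libraries of HMC3 cells was measured, 3 each of VEH, SLO ½ and SLO. The authors used Trimmomatic 0.38 for trimming and STAR 2.7.1a for alignment to GRCh38, and deposited stranded read counts per gene, without normalization, and TPM from the same alignments. The annotation release is not given in the sources used here, but identifiers and coordinates of 10 of 10 members match GENCODE 44. Counts were tested in R 4.3.3 with edgeR 4.0.16 (filterByExpr, TMM factors 0.968 to 1.03, quasi-likelihood F test with 3 groups and no other term, Benjamini-Hochberg adjustment, threshold 0.05), and the script was tested on simulated data. Lines that name no gene, 18.0% to 20.1% of reads, were left out. Reads on genes set the precision, and pair ratios were compared by exact permutation tests. DESeq2 1.42.0, limma 3.58.1 on log2(TPM + 1) or log2(TPM + 0.1), other scalings and filters, the 2 groups alone, a replicate block and each library left out were the alternatives. The members, the related lists and the tests were chosen with earlier results of these data known. Related genes named are in each list the 2 of smallest p when SLO was compared with VEH, and the single genes of small counts, HSF1, CDC37, HSPA6 and TRAP1 were added after their values were seen. Deviations from the group means had r of 0.0028 to 0.087 in the 9 same-numbered pairs and -0.062 to 0.037 in the 18 others. All these values are small and the ranges overlap, so whether the numbers pair the libraries was not settled. No 2 replicates were as close as counting noise alone would make them (chi-square over its degrees of freedom 1.85 to 4.42). Genome windows of 50 bases were matched exactly with Python 3.11.15, a step added after the counts were seen.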

Additional observations from a re-analysis of the deposited data

How the results depend on the processing

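Of 30 member results, 16 kept their call and direction under all 16 alternatives, 7 of them in SLO against VEH, where 6 members stayed lower in each. The number of members higher in SLO ½ against VEH was 1 in place of 2 with DESeq2, with DESeq2 size factors, without the expression filter and with limma on log2(TPM + 1) or log2(TPM + 0.1), and 1 to 3 when single libraries were left out. With limma on log2(TPM + 1) of all genes above 0, 0 members were higher and 2 were called in SLO ½ against VEH, 1 was higher in SLO against VEH, 15 related genes were higher in SLO ½ and 1773 genes were lower between the doses. Leaving out 1 library gave 3 to 5 members called in SLO ½ and 0 to 1 higher in SLO against SLO ½, where library size only and the 2 groups alone also gave 1. Directions turned only in results that did not pass the test, with ranges over the libraries left out of -0.059 to 0.11 for HSPA1A in SLO against VEH, -0.033 to 0.12 for HSPH1 and -0.25 to 0.0063 for HSPE1 in SLO ½, and -0.12 to 0.012 for HSPA1A and -0.018 to 0.032 for DNAJB1 between the doses. The replicate block changed 1 of 30 member results: HSP90AB1 in SLO ½ gave -0.089 and was called, which made 6 members called in place of 5. The cause of these changes was not tested. With 125 to 276 reads per library, depth limits HSPE1 most.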
